A study of Danio rerio with 4 samples.

Results

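The epicardial genes *tcf21*, *tbx18*, *wt1a*, *wt1b* and *aldh1a2* were examined in cryoinjured zebrafish ventricles lacking intact *cd74a* and *cd74b*. They were taken by gene name from the table of normalized counts, in which each name occurs once, and make up 5 of its 20984 genes and 5 of the 16065 genes that were tested. The mutant group consisted of 2 single ventricles of *cd74a; cd74b* mutants, which carry small CRISPR-Cas9 deletions in both genes (alleles bns454 and bns456), and the control group of 2 single wild-type ventricles. All 4 ventricles were cryoinjured, that is, damaged with a cold probe, and came from the AB strain. The fish of the study were 3 to 12 months old, with 1 female and 1 male per genotype. The records do not say which library is female. The paper places the collection at 120 hours post-cryoinjury (hpci), whereas the design text of the series gives 7 days.

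The epicardium is the mesothelial layer that covers the heart. After injury it becomes active, proliferates and surrounds the wound, and some of its cells leave the surface to become fibroblast-like and mural cells. Tcf21, a basic helix-loop-helix factor, Tbx18, a T-box factor, and Wt1a and Wt1b, paired zinc-finger proteins related to the mammalian Wilms tumor factor, are transcription factors used as epicardial markers. Aldh1a2 oxidizes retinaldehyde to retinoic acid and is made in the activated epicardium as well as in the activated endocardium, the inner lining of the heart. In whole ventricles, fewer epicardial cells and less RNA per epicardial cell cannot be told apart, nor can the epicardial and endocardial sources of *aldh1a2*. Whole ventricles also do not show which cells the RNA of *tcf21*, *tbx18*, *wt1a* and *wt1b* came from.

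Normalized counts are reads per gene divided by a size factor of the library, and they were rounded by the authors. They summed to 4198389 and 4382529 in the mutants and to 4278663 and 4123819 in the wild types. The targeted genes fell, with *cd74b* at 131 and 117 in the mutants against 622 and 678 in the wild types, and *cd74a* at 408 and 401 against 837 and 913. No single gene took more than 0.166% of a library's total, and *myl7*, the light chain of cardiac myosin, stood at only 970 to 1209 in all 4 libraries. Whether duplicate reads were removed is not given in the sources used here, and how far this narrow upper range limits the fold changes of high genes was not tested.

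None of the epicardial genes passed the test between genotypes. The test was limma, which fits every gene while sharing information on variance between genes, applied to log2(normalized count + 1). Calling a gene required an adjusted p-value below 0.05 and a log2 fold change of 0.59 or more in either direction. By this rule 0 of the 5 were called lower in mutants, against 7.44% of all tested genes, and 0 were called higher, against 2.70%. The limma p-value before adjustment was under 0.05 for 2 of the 5, *wt1a* and *wt1b*, and for 29.0% of all tested genes. In 1 gene (*wt1a*) the mutants were both lower than either wild type, as in 29.4% of all tested genes, and in 1 gene (*wt1b*) both were higher, as in 30.5%. The median log2 fold change was -0.24 for the 5 genes and 0.03 for all tested genes. The smallest p that exact permutation allows for 2 ventricles against 2 is 0.33, so the p-values here rest on limma's shared variance.

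**Figure D1:**
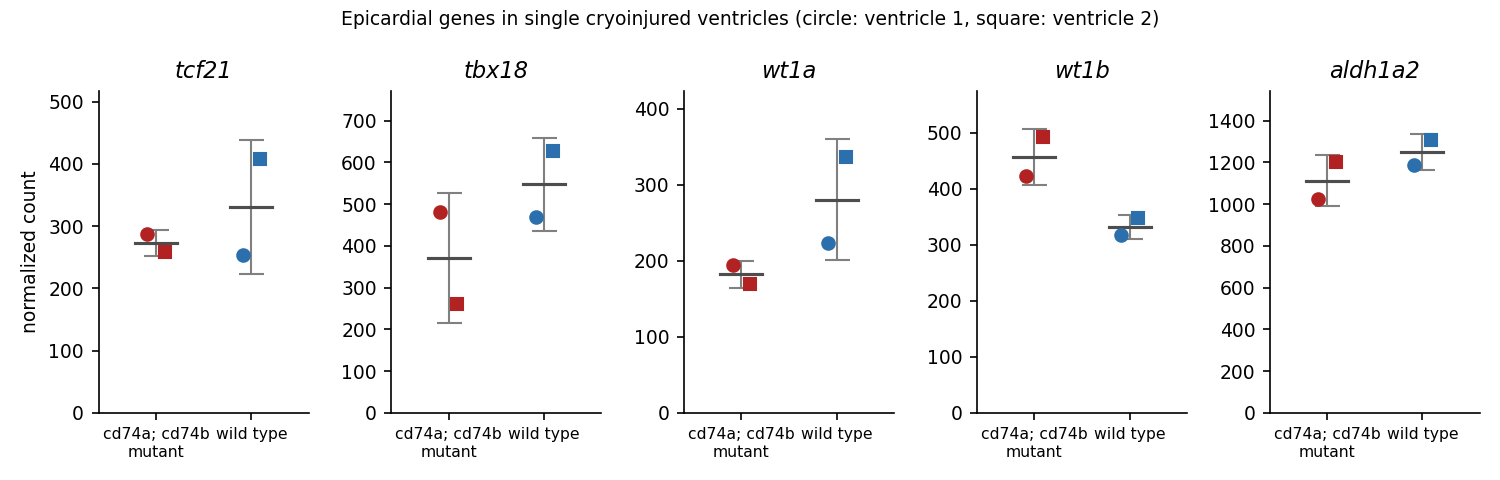
Normalized counts (y axis, from 0, one scale per gene) of the 5 epicardial genes in single ventricles of *cd74a; cd74b* mutants (red, left) and wild types (blue, right). Circles are ventricle 1 and squares ventricle 2 of each genotype, horizontal lines are means, and error bars are the SD of 2 ventricles. Only *wt1a* (170 and 195 against 224 and 337) and *wt1b* (422 and 492 against 317 and 347) show genotypes that do not overlap.

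*tcf21* marks epicardial cells and the fibroblasts and mural cells that descend from them. The gene (ENSDARG00000036869) lies on chromosome 23 from 31554269 to 31555696 on the reverse strand (danRer11). Mutants had 287 and 258 normalized counts, a mean of 272.5 ± 20.5 (SD, n = 2), and wild types 254 and 407, a mean of 330.5 ± 108 (SD, n = 2). The genotypes overlapped, since both mutants lay between the wild types, and the wild types differed 1.6-fold from each other. The log2 fold change was -0.24 (limma standard error 0.24, 95% interval -0.80 to 0.32, adjusted p = 0.54). Its direction rested on wild type 2, without which the log2 fold change was 0.099.

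*tbx18* is expressed in the epicardium from its embryonic precursor, the proepicardium, onward. The gene (ENSDARG00000036930) lies on the same chromosome from 31107685 to 31118371 on the forward strand, 436 kb from *tcf21*. It had 482 and 261 in the mutants (371.5 ± 156, SD, n = 2) and 469 and 627 in the wild types (548.0 ± 112, SD, n = 2). Mutant 1 lay above wild type 1, so the genotypes overlapped, and mutant 2 was the lowest of the 4 ventricles. The log2 fold change of -0.61 had the widest interval of the 5 genes (limma standard error 0.29, 95% interval -1.30 to 0.08, adjusted p = 0.22). It was -0.17 without mutant 2 and -1.05 without mutant 1. The mutants differed 1.85-fold from each other for *tbx18*, against 1.11-fold for *tcf21*.

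*wt1a* was the only one of the 5 genes in which both mutants lay below both wild types. It (ENSDARG00000031420) is found on chromosome 25 from 15178225 to 15214161, on the reverse strand. It had 195 and 170 in the mutants (182.5 ± 17.7, SD, n = 2) and 224 and 337 in the wild types (280.5 ± 79.9, SD, n = 2). The mutants were close to each other, while the wild types differed 1.5-fold. The log2 fold change was -0.59 (limma standard error 0.23, 95% interval -1.14 to -0.04, adjusted p = 0.15, unadjusted p = 0.038), a fold of 0.664. Without wild type 2 it was -0.30, and without wild type 1 it was -0.88.

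*wt1b*, its paralog, had the opposite sign. It (ENSDARG00000007990) is found on chromosome 18 from 45594085 to 45617146, on the reverse strand. It had 422 and 492 in the mutants (457.0 ± 49.5, SD, n = 2) and 317 and 347 in the wild types (332.0 ± 21.2, SD, n = 2). Both mutants lay above both wild types, and the ventricles of each genotype were within 1.17-fold of each other. The log2 fold change was 0.46 (limma standard error 0.16, 95% interval 0.08 to 0.84, adjusted p = 0.11, unadjusted p = 0.025), a fold of 1.37. It stayed between 0.35 and 0.57 with each ventricle left out in turn. Of the 5 genes *wt1b* had the smallest p-value, and it ranked 3465 of the 16065 tested genes.

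The *wt1* paralogs were also compared within each ventricle, where library scaling cancels. The ratio of *wt1a* to *wt1b* normalized counts was 0.462 and 0.346 in the mutants and 0.707 and 0.971 in the wild types. These ratios did not overlap between genotypes. This had to be so, because *wt1a* and *wt1b* each separated the genotypes, in opposite directions, and it is no further support. For the same reason the exact permutation p-value below had to be the smallest possible. The ratios are of read counts that are not scaled to transcript length, so they do not give which paralog has more transcripts. On the log2 scale the difference between the paralogs averaged -1.32 in mutants and -0.27 in wild types, so that it was lower by 1.05 in mutants, with a two-sided exact permutation p of 0.33, the smallest that 2 ventricles against 2 allow. The summed *wt1a* and *wt1b* counts were 617 and 662 in the mutants and 541 and 684 in the wild types, and these overlapped.

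*aldh1a2* differed little between ventricles, with at most 1.17-fold within a genotype. The gene (ENSDARG00000053493) lies on chromosome 7 from 30326184 to 30367650, on the reverse strand. It had 1026 and 1201 in the mutants (1113.5 ± 124, SD, n = 2) and 1187 and 1309 in the wild types (1248.0 ± 86.3, SD, n = 2). Mutant 2 lay above wild type 1, so the genotypes overlapped. The log2 fold change was -0.17 (limma standard error 0.15, 95% interval -0.51 to 0.18, adjusted p = 0.49), which corresponds to a fold between 0.702 and 1.13. It was -0.054 without mutant 1 and -0.28 without mutant 2.

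**Figure D2:**
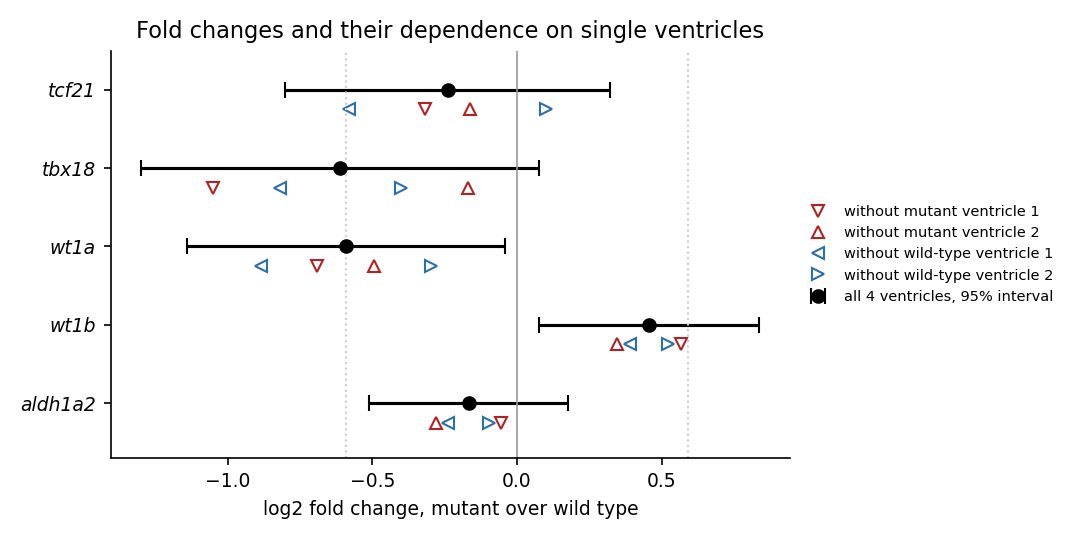
Log2 fold changes, mutant over wild type, of the 5 epicardial genes (x axis), with 95% intervals from limma for all 4 ventricles (black) and with each ventricle left out (open triangles below). Dotted lines mark the fold limit of 0.59 in either direction. Only the *tcf21* estimate changed sign, at 0.099 without wild type 2, and the *tbx18* estimates spread most, between -1.05 and -0.17.

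Reads behind these values were estimated from the rounding of the normalized counts, which gave size factors of 1.07 and 0.927 for the mutants and 1.05 and 0.974 for the wild types. The lowest value of any of the 5 genes corresponds to about 158 reads (*wt1a* in mutant 2), with a counting error (1 Poisson SD) of 7.96%, and the highest to about 1275 reads (*aldh1a2* in wild type 2), with a counting error of 2.80%. The 1.85-fold difference between the mutants for *tbx18* and the 1.6-fold difference between the wild types for *tcf21* were thus larger than counting error. Before scaling, *wt1b* had an estimated 450 and 456 reads in the mutants and 333 and 338 in the wild types, and *aldh1a2* 1094 and 1113 against 1246 and 1275. For both genes the estimated reads differed less within a genotype than the scaled values did. In the mutants the reverse held for *tcf21* (306 and 239 estimated reads), *tbx18* (514 and 242) and *wt1a* (208 and 158). In the wild types their estimated reads (267 and 396, 492 and 611, 235 and 328) again differed less. Estimated reads are not corrected for depth, with estimated totals of 4475483 and 4062604 in the mutants and 4492596 and 4016600 in the wild types. These errors cover counting only.

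The genes did not vary together as one group. *tcf21*, *tbx18* and *wt1a* were each highest in wild type 2, and each was higher in mutant 1 than in mutant 2. *wt1b* was highest in mutant 2 and *aldh1a2* in wild type 2, and both were higher in mutant 2 than in mutant 1. Likeness was measured as the Euclidean distance between log2 profiles over the 4 ventricles, each centered on its gene's mean, where smaller is more alike. *tcf21* and *wt1a* were the closest pair at 0.36, followed by *tcf21* and *aldh1a2* at 0.47, and *tbx18* and *wt1b* were the farthest apart at 1.34. With 4 ventricles these distances are a description of these libraries alone.

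Markers of tissue next to the ventricle varied in the same libraries. *myh6*, the atrial myosin heavy chain, had 1250 and 154 in the mutants and 1352 and 3908 in the wild types. It too was highest in wild type 2 and lowest in mutant 2, as were *tbx18* and *wt1a*. The 25 tested cardiomyocyte genes, among them *myh6*, summed to 34864 and 36963 in the mutants and 37988 and 40873 in the wild types. This sum was highest in wild type 2 and lowest in mutant 1. It contains *myh6* itself, so its high value in wild type 2 is not separate from that of *myh6*. Of the 25, 5 lay lower and 4 higher at an unadjusted limma p under 0.05, against 29.0% of all tested genes in either direction. *elnb*, an elastin gene of the outflow tract, had 297 and 145 against 375 and 591, and *slc4a1a*, the anion exchanger of red cells, 550 and 508 against 700 and 2002. As whole lists, the 8 tested outflow tract smooth muscle genes summed to 4696 and 4245 in the mutants and 4507 and 4052 in the wild types. None was called by limma, and 2 lay lower and 2 higher at an unadjusted p under 0.05, against 29.0% of all tested genes in either direction. In 4 of the 8 both mutants lay above both wild types, and in 2, *elnb* and *cnn1b*, below. Over all tested genes the shares were 30.5% and 29.4%. *elnb* was thus not typical of its list, whose sum was lowest in wild type 2. The 10 blood genes summed to 3144 and 2958 against 3901 and 7349. Of these 10 blood genes, 1 was called lower by limma, against 7.44% of all tested genes, a call lost without the mean-variance trend. At an unadjusted limma p under 0.05, 7 of them lay lower and 0 higher, against 29.0% of all tested genes in either direction. None of the genes of these lists was at 0. Their part in the values of *tcf21*, *tbx18*, *wt1a* and *aldh1a2* was not tested.

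**Figure D3:**
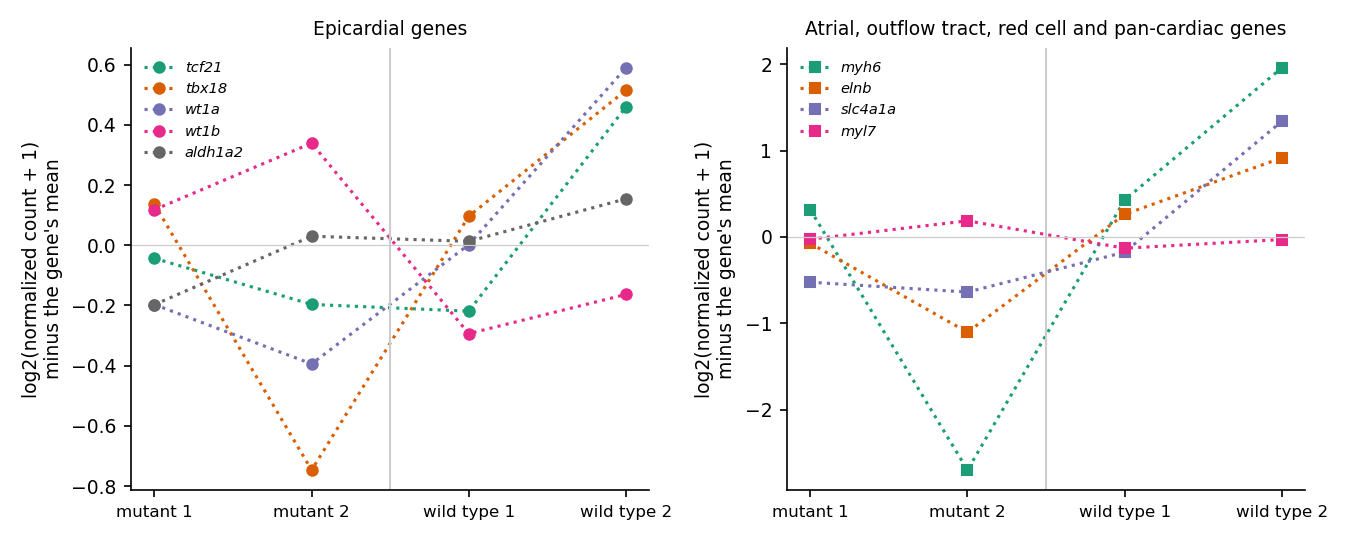
Centered log2(normalized count + 1) values (y axis) in the 4 ventricles (x axis) for the epicardial genes (left panel, circles) and for *myh6*, *elnb*, *slc4a1a* and *myl7* (right panel, squares). Dotted lines only join the points of a gene. *tcf21*, *tbx18*, *wt1a* and *aldh1a2* peak in wild type 2, where *myh6* (3908), *elnb* (591) and *slc4a1a* (2002) are also highest. *wt1b* peaks in mutant 2. The sum of the 8 tested outflow tract genes, among them *elnb*, is instead lowest in wild type 2 (4052). The sum of the 25 tested cardiomyocyte genes is highest in wild type 2 (40873) and lowest in mutant 1 (34864). *myh6* is part of this sum, so the peak of the sum in wild type 2 is not separate from that of *myh6*.

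Among the 211 tested genes of the gene lists, those with the most similar profiles over the 4 ventricles differed from one epicardial gene to the next. For *tbx18* they were *pdgfra*, a platelet-derived growth factor receptor of fibroblasts and epicardial cells (548 and 364 in mutants, 656 and 833 in wild types, distance 0.24), and *nrp1a*, a neuropilin co-receptor (482 and 290 against 631 and 699, distance 0.31). For *wt1b* the closest was *snai2*, a repressor active in epithelial to mesenchymal transition (415 and 502 against 327 and 340, distance 0.065), followed by the troponin gene *tnni1b* (distance 0.099). For *tcf21* these were *tal1* and *cthrc1a* (0.18 and 0.24), for *wt1a* the blood genes *alas2* and *hbaa1* (0.22 for both), and for *aldh1a2* the natriuretic peptide gene *nppb* and the podocalyxin gene *podxl* (0.13 for both). None of these 10 genes was called between genotypes, against 7.44% of all tested genes called lower and 2.70% called higher. They were picked for likeness to genes that were not called, so this is no separate result.

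The wider epicardial and mesothelial list gave shares close to those of the whole table. Of its 34 tested genes, 3 were called lower (8.82%, against 7.44% of all tested genes) and 1 higher (2.94%, against 2.70%), with a median log2 fold change of 0.01. The lower genes were *gata4*, a cardiac and epicardial zinc-finger factor (53 and 41 in mutants, 194 and 182 in wild types, log2 fold change -1.99), *bnc2*, a basonuclin (432 and 346 against 591 and 806, -0.83), and the fibronectin gene *fn1b* (4617 and 3672 against 6096 and 6864, -0.65). The higher gene was *cdh11*, a cadherin of mesenchymal cells (683 and 728 against 379 and 446, 0.78). The limma adjusted p-values of these genes lay between 0.010 and 0.047. Without the mean-variance trend in limma, only *gata4* of these stayed called. The keratin gene *krt4* had 1449 and 1545 against 1459 and 1625. Of the 34 genes, 5 lay lower and 2 higher at an unadjusted limma p under 0.05, against 29.0% of all tested genes in either direction.

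Cells that leave the epicardium pass through an epithelial to mesenchymal transition and can become mural cells or fibroblasts. Of 27 tested transition and mural genes, 1 was called lower (3.70%, against 7.44% of all tested genes) and 0 higher (against 2.70%) by limma. At an unadjusted limma p under 0.05, 4 lay lower and 4 higher, against 29.0% of all tested genes in either direction. The gene called lower was *zeb1a*, a zinc-finger repressor, with 7 and 1 in mutants and 50 and 48 in wild types (log2 fold change -3.64, limma adjusted p = 0.028), a call lost without the mean-variance trend. With a minimum mean of 50, which removed *zeb1a* (mean 26.5) from the test, 0 genes of the list were called lower and 1 higher. *snai1b*, with 228 and 263 against 151 and 145, narrowly missed the threshold (log2 fold change 0.72, limma adjusted p = 0.053). *pdgfra* had a log2 fold change of -0.73 (limma adjusted p = 0.082). Of 25 tested fibroblast and connective tissue genes, limma called 0 in either direction. At an unadjusted limma p under 0.05, 2 of the 25 lay lower and 2 higher, again beside 29.0% of all tested genes.

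*aldh1a2* is one step of a pathway in which retinol is oxidized to retinaldehyde, retinaldehyde to retinoic acid, and retinoic acid is carried by binding proteins, sensed by nuclear receptors and broken down by Cyp26 enzymes. Of its other 33 tested genes, 3 were called lower (9.09%, against 7.44%) and 1 higher (3.03%, against 2.70%), with a median log2 fold change of -0.12. Upstream of *aldh1a2*, the retinol dehydrogenase *rdh10a* had 392 and 396 in mutants and 408 and 333 in wild types. *dhrs3b*, which belongs to the enzymes that return retinaldehyde to retinol, rose in mutants, with 208 and 286 against 111 and 131 (log2 fold change 1.01, limma standard error 0.23, adjusted p = 0.037). The related *aldh1a3* stood at 0 and 3 against 0 and 1 and was not tested.

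Downstream, the binding protein gene *crabp2a* fell in mutants, with 118 and 107 against 227 and 214 (log2 fold change -0.97, limma adjusted p = 0.027). The retinoid X receptor gene *rxrba* fell to 106 and 55, against 363 and 316 in wild types (-2.13, limma adjusted p = 0.013), and the coactivator gene *ncoa1* to 13 and 3, against 82 and 93 (-3.56, limma adjusted p = 0.019). Related genes with higher counts were not called: *crabp2b* (628 and 570 against 611 and 603), *rxrbb* (455 and 460 against 323 and 412), *ncoa2* (640 and 525 against 604 and 453) and *ncoa3* (431 and 410 against 466 and 447). The related *rxraa* (33 and 19 against 162 and 41) and *crabp1a* (4 and 16 against 29 and 37) were lower without passing the test. The retinoic acid receptor gene *rarga* had 626 and 750 against 524 and 415 without passing the test (0.55, limma adjusted p = 0.089). *cyp26b1*, which degrades retinoic acid, had 514 and 529 against 530 and 416, so these overlapped. All 4 calls in the pathway were lost without the mean-variance trend. With a minimum mean of 50, which removed *ncoa1* (mean 47.75) from the test, 2 genes of the list were called lower and 1 higher. Of its 33 genes, 8 lay lower and 2 higher at an unadjusted limma p under 0.05, against 29.0% of all tested genes in either direction.

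**Figure D4:**
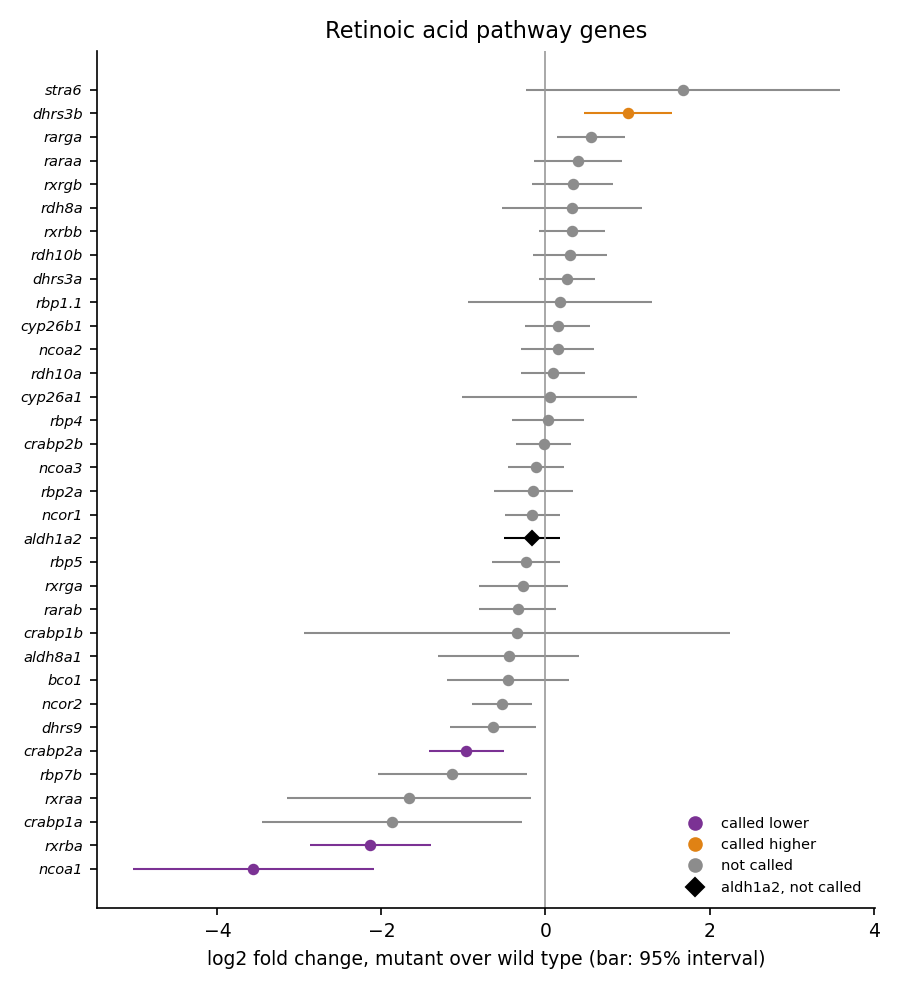
Log2 fold changes, mutant over wild type, with 95% intervals from limma (x axis), of *aldh1a2* (black diamond, -0.17) and the 33 other tested genes of the retinoic acid pathway, ordered by value. *ncoa1*, *rxrba* and *crabp2a* were called lower (purple) and *dhrs3b* was called higher (orange).

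Since *aldh1a2* is also made by activated endocardium, endocardial and endothelial genes were set beside it. Of 31 tested, 3 were called lower and 3 higher (9.68% each, against 7.44% and 2.70% of all tested genes). Those lower were *kdr*, *notch1b* and *vwf* and those higher *pecam1*, *cldn5b* and *sox18*, of which only *kdr* stayed called without the mean-variance trend. *spock3* (1660 and 1918 in mutants, 1566 and 1699 in wild types) and *aqp8a.1* (760 and 935 against 708 and 752) are examples not called. In 8 of the 31 both mutants lay below both wild types, and in 8 above. Over all tested genes these shares were 29.4% and 30.5%. Of the 31 genes, 5 lay lower and 5 higher at an unadjusted limma p under 0.05, against 29.0% of all tested genes in either direction. For comparison, 8 of 23 leukocyte genes were called lower by limma (34.8%, against 7.44% of all tested genes) and 0 higher. The leukocyte list includes genes that the paper had reported as lower from this same bulk RNA-seq, so its share is no independent result. At an unadjusted limma p under 0.05, 11 of the 23 lay lower and 0 higher, against 29.0% of all tested genes in either direction. This 29.0%, here and above, pools lower and higher genes. Without the mean-variance trend, 1 of the 8 stayed called.

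The genomic neighbors of the epicardial genes were examined last. Each of the 5 has a nearest tested gene on either side, and of all these only *kifc3*, a kinesin gene beside *wt1b*, was called. Over all tested genes, 7.44% were called lower and 2.70% higher. *kifc3* had 841 and 801 in mutants and 521 and 447 in wild types (log2 fold change 0.76, limma adjusted p = 0.024), a call lost without the mean-variance trend or with a log2 fold limit of 1. In the annotation, *kifc3* on the forward strand and *wt1b* on the reverse strand overlap by 665 bases. The libraries were made with a stranded kit and reads that overlapped several genes were excluded, but whether the counting used the strand is not given in the sources used here, so reads of the *wt1b* and *kifc3* overlap may not be assigned with certainty. On the other side of *wt1b*, *eif3m* had 680 and 744 against 572 and 735 and was not called.

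Between *tbx18* and *tcf21* lie 8 tested genes, of which 1 was called lower and 0 higher, against 7.44% and 2.70% of all tested genes. The called gene was *phip*, a bromodomain gene, with 45 and 27 in mutants and 180 and 164 in wild types (log2 fold change -2.27, limma adjusted p = 0.012). *phip* was named, like *osbpl2a* on the other side of *tbx18* (8 and 13 against 74 and 88, log2 fold change -2.86), after its value was seen. The neighbors closest to *tcf21*, *eya4* and *tbpl1*, had limma adjusted p-values of 0.47 and 0.60.

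**Figure D5:**
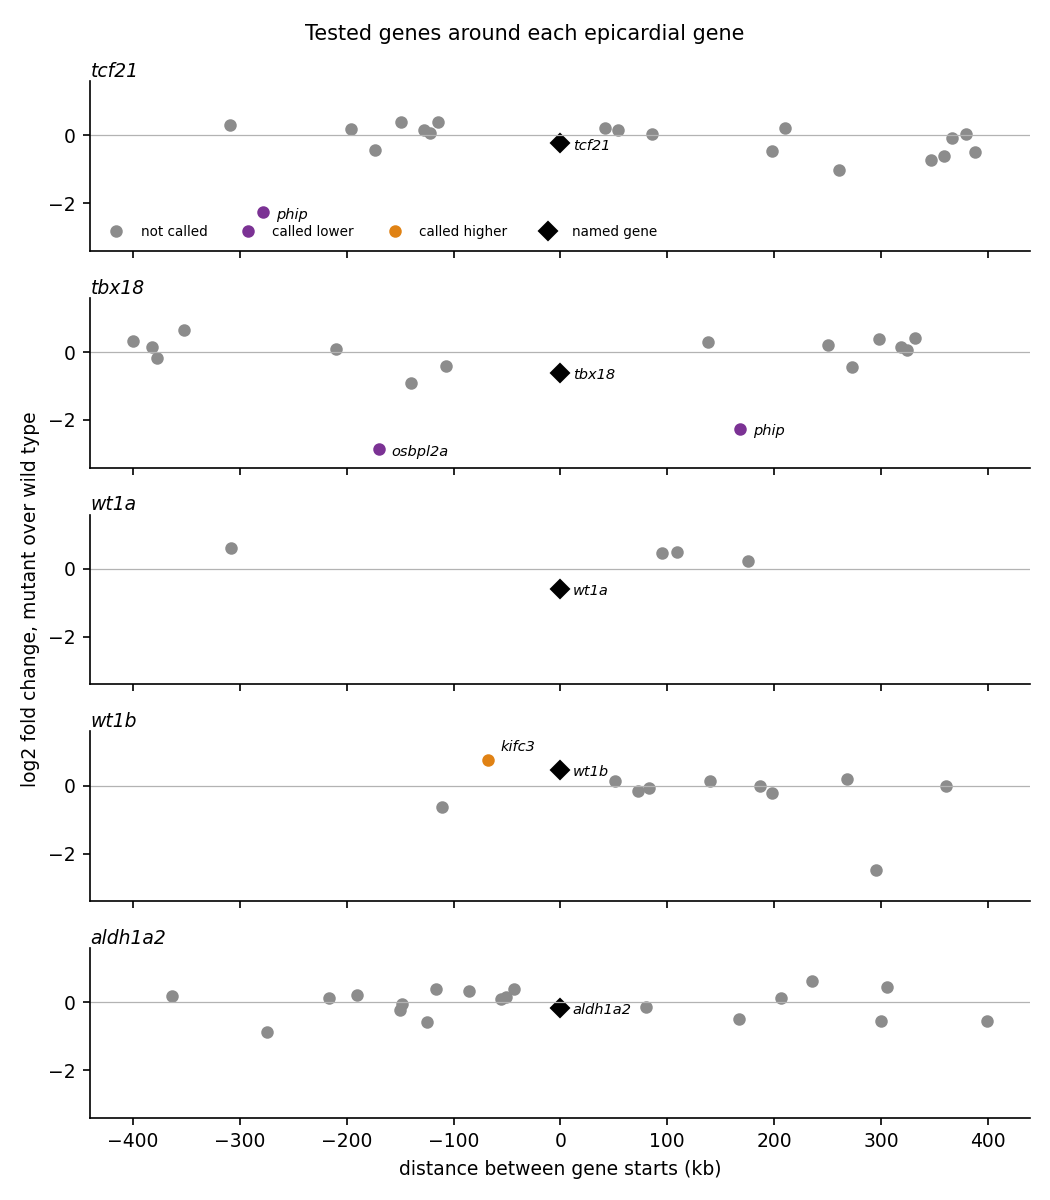
Log2 fold changes, mutant over wild type (y axis), of tested genes whose start lies within 400 kb of the start of each epicardial gene (x axis, distance in kb, along the forward strand). Black diamonds are the epicardial genes. *phip* (-2.27) and *osbpl2a* (-2.86) were called lower and *kifc3* (0.76) was called higher, and no called gene lies within the windows of *wt1a* and *aldh1a2*.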

How the data were processed

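Bulk RNA-seq was performed on single ventricles. According to the methods and the submitters' processing notes, the authors trimmed single-end reads with Trimmomatic 0.39, aligned them to danRer11 with STAR 2.7.9a, counted those at least partially in exons with featureCounts 2.0.2, leaving out reads shared by more than 1 gene or mapping to more than 1 place, and normalized with DESeq2 1.30.0. The deposited values are treated as a score: counts divided by a size factor and rounded, so no count test was run. Genes with a mean of at least 10 were tested with limma 3.58.1 in R 4.3.3 (mean-variance trend, Benjamini-Hochberg adjustment, pseudocount 1). The paralog ratio was tested with scipy 1.17.1. The main comparison has no replicate block. Named genes were drawn from the epicardial genes, the targeted genes, called list genes, nearest tested neighbors and most similar list genes. Up to 4 others per list with the smallest p-values could be added. Of the called blood, cardiomyocyte and leukocyte genes, only *gata4* is named. Of 25 tested cardiomyocyte genes, limma called 2 lower (8.00%, against 7.44% of all tested genes) and 1 higher (4.00%, against 2.70%). A few other genes (*krt4*, *rdh10a*, *aldh1a3*, *cyp26b1*, *crabp2b*, *rxrbb*, *ncoa2*, *ncoa3*, *rxraa*, *crabp1a*, *spock3*, *aqp8a.1*, *myl7*) were named as examples outside this rule. The genes and lists were chosen with earlier results of these data known. Sequences were not used here.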

Additional observations from a re-analysis of the deposited data

How the results depend on the processing

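All 15 alternatives (pseudocounts of 0.1 and 5, no filter, a minimum mean of 50, no trend, equal totals, equal upper quartiles, cyclic loess, a replicate block, each ventricle left out, a log2 fold limit of 1 and none) called 0 of the 5 epicardial genes. Of 75 log2 fold changes, 74 kept their direction. The exception was *tcf21*, which was 0.099 without wild type 2, and its leave-one-out values ranged from -0.58 to 0.099. The 75 include settings that cannot change these log2 fold changes, namely the filters, no trend, the replicate block and the fold limits. Same-numbered ventricles are different fish, and their deviations had a correlation of -0.066. With 2 ventricles per genotype this cannot show whether same-numbered libraries share a factor. Their estimated total reads were close, at 4475483 in mutant 1 and 4492596 in wild type 1, and at 4062604 in mutant 2 and 4016600 in wild type 2. With the replicate block, the adjusted p-values from limma were 0.125 for *wt1b* and 0.182 for *wt1a*, and their log2 fold changes of 0.46 and -0.59 did not move. Of the named calls, those of *bnc2*, *fn1b*, *zeb1a* and *crabp2a* were lost with the block. Those of *bnc2*, *fn1b*, *cdh11*, *crabp2a*, *vwf*, *sox18*, *pecam1* and *kifc3* were lost with a log2 fold limit of 1. Over all genes, 1196 were called lower and 434 higher. No filter gave 0 and 0 (smallest adjusted p 0.0518, 5015 genes at an unadjusted p under 0.05), no trend 461 and 82 (*cd74b* but not *cd74a* among them), the replicate block 740 and 215, and a fold limit of 1 gave 1059 and 238. With any ventricle left out limma called 0 genes, so those fits say nothing about the stability of calls. Every call was lost without the filter.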
